A study of Mus musculus with 71 samples.

Results

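The RNA of 9 genes of the inflammasome and of interleukin-1 (IL-1) was followed in whole blood across the groups of a mouse study of systemic sclerosis (SSc). The genes were taken by symbol: Nlrp3, Pycard, Casp1, Casp4, Gsdmd, Il1b, Il18, Il1rn and Il1r2. All 9 were found among the 10508 genes of the deposited table of transformed values and among the 55416 genes of the count table. The study asked how antibodies against galectin-3 act in BALB/c AnNRj female mice in which daily intradermal hypochlorous acid (HOCl) induces an SSc-like disease. Mice were 6 weeks old at the start and were injected 5 days per week for 6 weeks. The control group (11 mice) received PBS in place of HOCl, and the HOCl group (12 mice) received HOCl with no antibody. The groups D11 and E07 (12 mice each) received HOCl and an anti-galectin-3 monoclonal antibody of that name, subcutaneously at 20 mg/kg, 1 day before the first HOCl injection and then every 5 days from day 5. The groups D06 and BPR21 (12 mice each) carry those treatment names on an HOCl background, and their dose is not given in the sources used here. The study also tested TD139, a galectin-3 inhibitor, a name that no sample title carries. Control and experimental mice were kept in separate cages, so that cage and group cannot be told apart. The HOCl model is chemically induced, and blood was the only tissue measured here.

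The inflammasome is a protein platform that white blood cells, above all monocytes, macrophages and neutrophils, assemble on sensing damage or microbes. The sensor NLRP3 recruits the adaptor ASC, encoded by Pycard, which activates caspase-1. Caspase-1 cuts the precursors of IL-1 beta and IL-18 into active cytokines and cuts gasdermin D, whose fragments form pores in the cell membrane. Mouse caspase-11, encoded by Casp4, senses bacterial lipopolysaccharide inside the cell and also cuts gasdermin D. IL-1 beta is restrained by 2 dedicated inhibitors. The antagonist encoded by Il1rn occupies the signalling receptor without signalling, and the decoy receptor encoded by Il1r2 binds IL-1 without passing on a signal. Since the platform is switched on by assembly and cleavage, RNA levels report the supply of its parts and not its activity.

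Libraries held 11932855 to 15948972 counted reads, with a median of 13719277. Values on the log2 scale are the authors' variance-stabilized (vst) values and compress the differences of low genes. One HOCl mouse, number 8, was in the count table only, so vst comparisons used 11 HOCl mice and count ratios used 12. The blood identity of the samples was visible in markers of neutrophils (14 of 14 in the vst table), monocytes (13 of 13), B cells (8 of 8), T cells (9 of 9) and erythroid cells (19 of 20). In such bulk samples, fewer cells of a type and less RNA per cell cannot be told apart. BPR21 mice 7 and 11 stood apart from the rest: both exceeded every one of the other 68 mice for 372 of the 10508 genes, or 3.54%. Most results that rest on them are given with and without them. The neutrophil marker mean was 11.8 in both of these mice on the vst scale, at the top of the BPR21 group range of 9.59 to 11.8. HOCl mice reached up to 11.9.

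The promoters of the interleukin genes are shown because Il1b, Il1rn and Il1r2 varied together from mouse to mouse, as described below. The RefSeq table (build GRCm38.p6) had promoter entries for 8 of the 9 genes, 12 entries in all, and none for Gsdmd. Each sequence is the 250 bases before the annotated start, 5′ to 3′ on the strand of the gene. Capitals mark a match to TATAAA, the core of the TATA box, or to GGGNNTTTCC, a form of the NF-kB site, searched on both strands.
Il1b, chr2:129371140-129371389, minus strand: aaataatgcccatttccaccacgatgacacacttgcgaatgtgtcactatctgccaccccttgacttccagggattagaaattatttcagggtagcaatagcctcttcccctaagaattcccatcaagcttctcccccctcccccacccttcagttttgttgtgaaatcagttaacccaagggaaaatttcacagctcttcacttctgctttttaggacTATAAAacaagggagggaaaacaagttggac
Il1rn, chr2:24345121-24345370, plus strand, 1 of 3 annotated starts: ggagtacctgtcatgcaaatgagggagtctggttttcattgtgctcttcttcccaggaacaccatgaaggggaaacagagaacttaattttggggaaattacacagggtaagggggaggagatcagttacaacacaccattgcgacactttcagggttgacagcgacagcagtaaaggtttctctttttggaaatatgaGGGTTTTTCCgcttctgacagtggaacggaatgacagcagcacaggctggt
Il1r2, chr1:40085843-40086092, plus strand: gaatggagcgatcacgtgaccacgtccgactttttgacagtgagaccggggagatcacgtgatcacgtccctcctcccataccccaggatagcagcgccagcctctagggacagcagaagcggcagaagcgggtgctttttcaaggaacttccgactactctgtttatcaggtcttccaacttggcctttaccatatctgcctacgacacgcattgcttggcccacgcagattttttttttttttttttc
In the GRCm39 annotation, Il1b spans chr2:129206490-129213059 (minus strand), Il1rn chr2:24226865-24241506 and Il1r2 chr1:40113239-40164391 (both plus strand), and Casp1 and Casp4 lie side by side on chromosome 9.
The Il1b promoter held the TATA match beginning 31 bases before the start. The Il1rn promoter shown held an NF-kB match beginning 51 bases before the start, and the promoters of the other 2 Il1rn starts held neither motif. The Il1r2 window held neither. TATAAA was present in 12.4% of all 32851 promoter windows of this length and GGGNNTTTCC in 1.41%. Among the other members, both Casp4 entries held the NF-kB form and the Il18 entry held TATAAA on the opposite strand, whereas Nlrp3, Pycard and Casp1 held neither. These matches describe letters only.

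Levels were compared between genes per length, as reads per kilobase of exon, scaled to the total count of the library (RPKM, 71 mice). Il1b was the most abundant of the 9 genes, with a median of 132 RPKM and a range of 46.6 to 460.4. Gsdmd followed at 17.7 RPKM, and Pycard (7.04), Casp1 (6.89), Il1rn (6.20), Il1r2 (5.24) and Casp4 (4.65) lay close together. Nlrp3, the sensor, was at a median of 3.01 RPKM and Il18 at 1.09 RPKM. The 2 cytokine precursors therefore stood at opposite ends of the group. Il18 had 0 counts in 3 mice (D11 mouse 10, and D06 mice 5 and 11), which allows up to 3 counts in each, and a median of 44 counts over all mice.

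**Figure D1:**
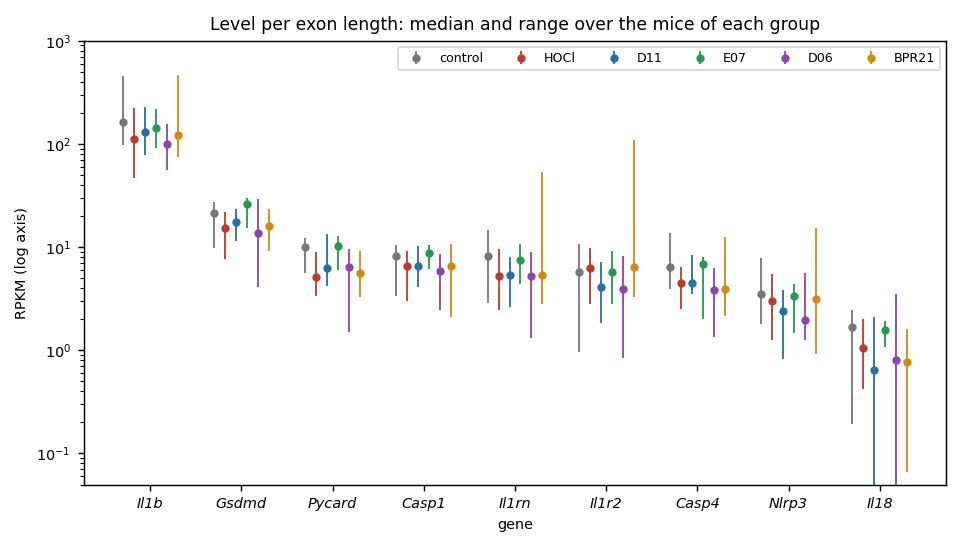
Level of each gene per exon length (RPKM, log axis) in the 6 groups, with the median as a point and the lowest to highest mouse as a bar; bars of Il18 that leave the axis reach mice with 0 counts. The medians of Il1b lie above those of the other genes in every group, and the bars of Il1rn and Il1r2 in BPR21 extend to 53.3 and 108.4 RPKM.

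The first comparison asked whether HOCl changed the supply of these parts. None of the 9 genes passed the thresholds (limma, FDR at most 0.05 over all genes and a fold change of at least 1.3) between HOCl mice and controls, where 4.96% of all genes did. By edgeR, with 5.1% of all genes called, and by DESeq2, 0 of 9 passed as well. An unadjusted limma p under 0.05 was reached by 1 of the 9 genes and by 1885 of all 10508, a larger share. The member was the adaptor Pycard, with a log2 fold change of -0.22 (SE 0.094, FDR 0.19). Its vst values ran from 8.80 to 9.30 in controls (median 9.15) and from 8.53 to 9.46 in HOCl mice (median 8.86), so the groups overlapped. The sensor Nlrp3 differed by 0.07 (SE 0.14, FDR 0.85), and its range of 7.56 to 8.68 in HOCl mice lay largely inside that of controls, 7.72 to 8.86. The effector genes gave fold changes of 0.10 for Casp1 (SE 0.090, FDR 0.64), -0.17 for Casp4 (SE 0.15, FDR 0.61) and -0.05 for Gsdmd (SE 0.088, FDR 0.83). Among the cytokines, Il1b differed by -0.20 with a 95% interval of -0.71 to 0.31, and Il18 by -0.03 with an interval of -0.24 to 0.17. Among the inhibitors, Il1rn differed by -0.07 (interval -0.40 to 0.26) and Il1r2 by 0.29 (interval -0.06 to 0.63, FDR 0.39). The median of the 9 fold changes was -0.05 on the log2 scale, against -0.02 over all genes. The intervals of the 9 genes reached from 0.611-fold (Il1b) to 1.55-fold (Il1r2).

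The count of calls in this comparison changed with the scaling of the libraries. Scaled by the total count of each mouse (log2(CPM + 1)), 5 of the 9 genes were lower in HOCl mice, with log2 fold changes for Pycard (-0.71), Casp4 (-0.67), Gsdmd (-0.49), Il1b (-0.69) and Il1rn (-0.57). With this scaling 52% of all genes were called and the median of all genes moved to -0.46, below which each of the 5 genes lay. Nlrp3 and Casp1, which were not called, changed sign to -0.34 and -0.33. Erythroid markers were higher in HOCl mice, with 18 of 19 called and a median log2 fold change of 1.39 (vst values, limma).

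**Figure D2:**
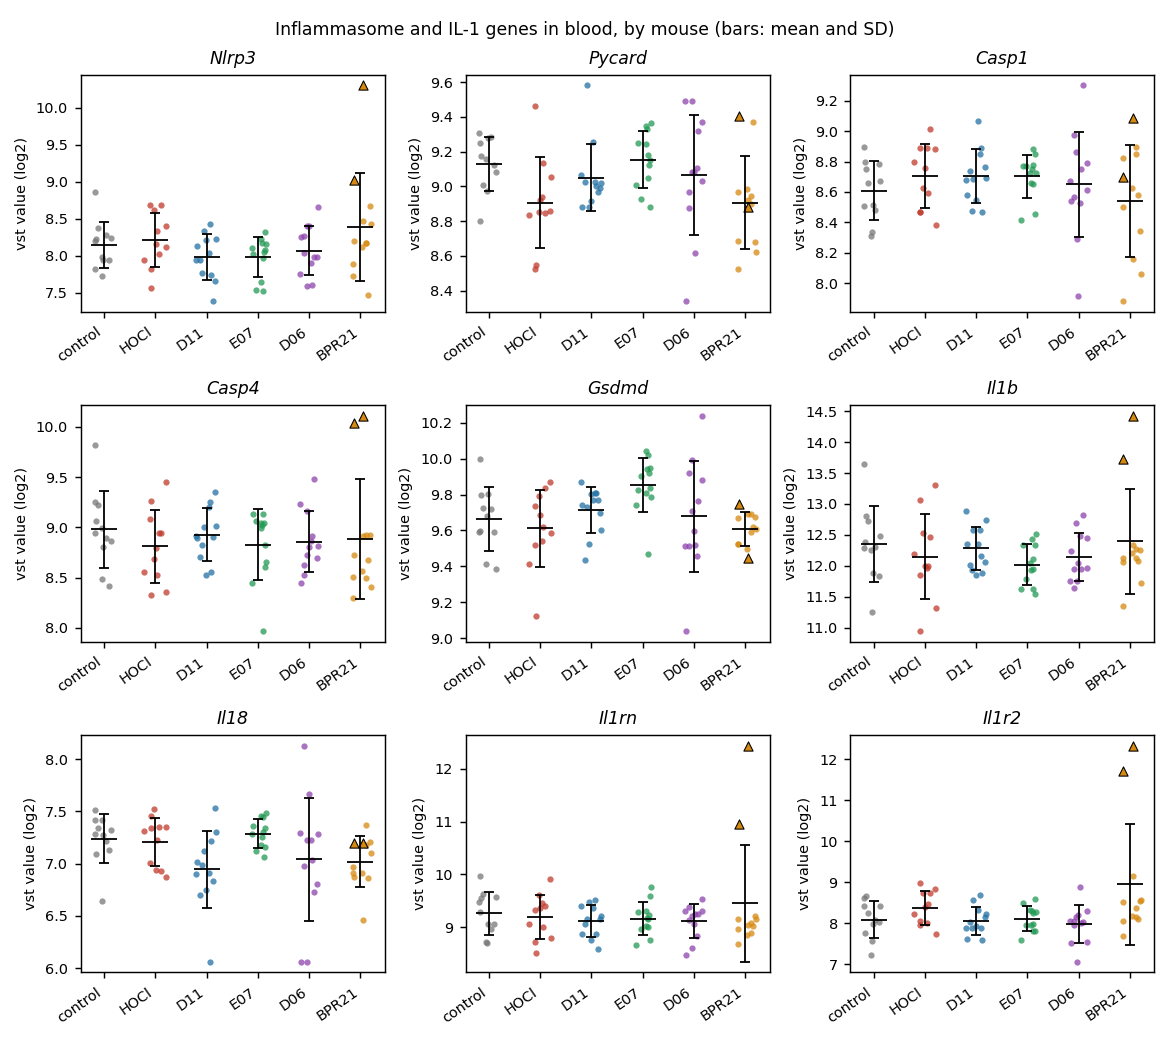
Values of the 9 genes on the vst scale (log2) in each mouse of the 6 groups, with the group mean and SD as bars; triangles are BPR21 mice 7 and 11. The groups overlap for every gene, and the triangles lie above all other mice for Nlrp3, Casp4, Il1b, Il1rn and Il1r2.

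The next question was how each treatment compared with HOCl alone. No member passed both thresholds in D11 (0.0571% of all genes called), E07 (7.89%), D06 (0.133%) or BPR21 mice (0.638%) against HOCl mice. The counts at an unadjusted limma p under 0.05 were 2, 2, 1 and 0 of 9, against 1483, 2996, 1338 and 1474 of all 10508 genes. By edgeR (11.2% of all genes called for E07) and by DESeq2, 0 of 9 were called in each as well. These 4 comparisons share the HOCl mice. In E07 mice, Gsdmd came closest. Its vst values were 9.47 to 10.0 in E07 mice (median 9.87) and 9.12 to 9.87 in HOCl mice (median 9.62). The difference was 0.24 in log2 units (SE 0.080, 95% interval 0.08 to 0.41, limma FDR 0.0416), which passed the FDR but not the fold threshold. Pycard, the adaptor, was at a median of 9.16 in E07 mice against 8.86 in HOCl mice, a difference of 0.25 (SE 0.090, FDR 0.0612). In the same comparison Nlrp3 stood at -0.23 (SE 0.12, FDR 0.23), Il1b at -0.13 (SE 0.20, FDR 0.72) and Il1r2 at -0.27 (SE 0.14, FDR 0.20). Casp1, the caspase that matures IL-1 beta, was at -0.0026 (interval -0.16 to 0.16). Scaled by total counts, 6 members were called higher in E07 mice (Pycard, Casp1, Casp4, Gsdmd, Il18 and Il1rn), together with 64.6% of all genes, whose median moved to 0.49. Pycard (0.76) and Gsdmd (0.73) were above that median, and the other 4 lay between 0.47 and 0.51. Nlrp3, Il1b and Il1r2 were not called with this scaling, but their sign turned, so that all 9 members were higher in E07 mice. Erythroid markers were lower in E07 than in HOCl mice, with 18 of 19 called (median -1.44), and B cell markers were higher, with 7 of 8 called (median 0.53).

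**Figure D3:**
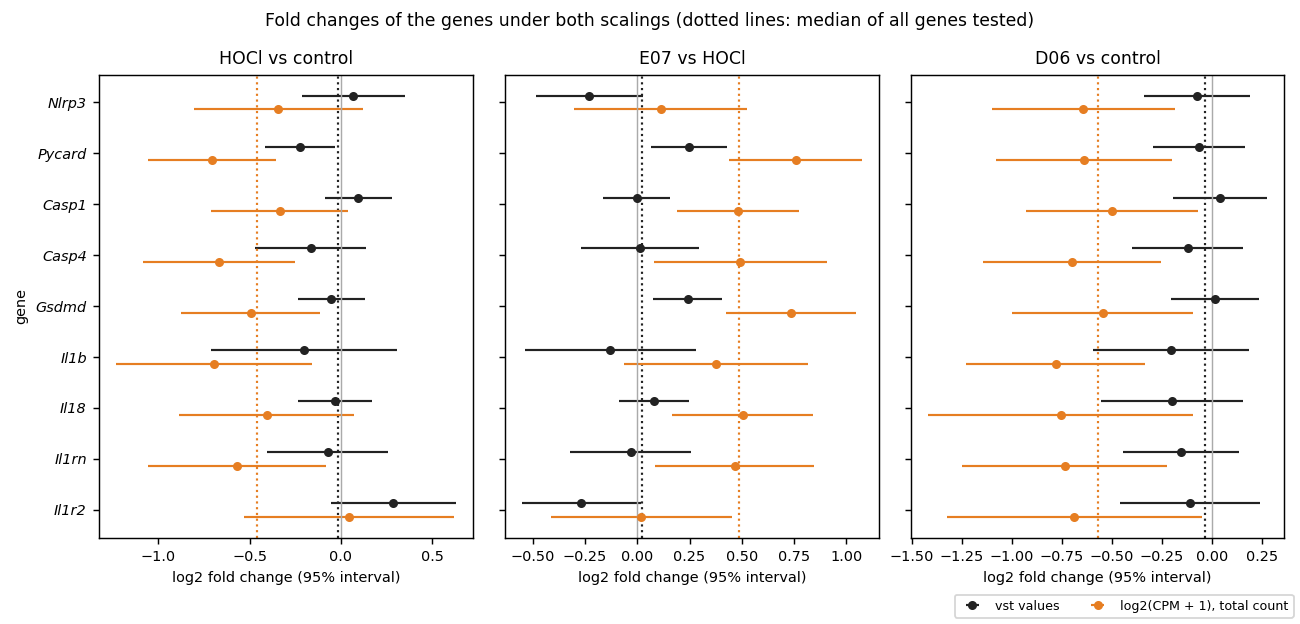
Log2 fold changes of the 9 genes with 95% intervals in the 3 comparisons with most calls over all genes, from vst values (black, limma) and from log2(CPM + 1) scaled by total counts (orange); dotted lines are the medians of all genes tested. The orange points move with their dotted line (-0.46, 0.49 and -0.57), whereas the black points stay within 0.29 of 0.

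In D11 mice, the decoy receptor Il1r2 differed from HOCl mice by -0.32 (SE 0.15, unadjusted p = 0.0390, limma FDR 0.33) and Il18 by -0.26 (SE 0.12, FDR 0.34). Il1r2 was 7.60 to 8.69 in D11 mice (median 7.98) and 7.75 to 8.98 in HOCl mice (median 8.40). Il1b itself differed by 0.13 (interval -0.28 to 0.55). In D06 mice, Il1r2 differed by -0.40 (SE 0.17, FDR 0.32), with values of 7.07 to 8.89 and a median of 8.04. The other 8 members differed from HOCl by between -0.17 and 0.16 in D06 mice. In BPR21 mice, Il1r2 was the member with the largest difference from HOCl mice, 0.57, and its interval of -0.28 to 1.42 was wide (FDR 0.57). Without mice 7 and 11 it was -0.05 (interval -0.38 to 0.29, FDR 0.94), and 0 of the 9 members lay above HOCl mice, against 6 of 9 with them.

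Against controls, no member passed in D11 (0.0761% of all genes called), E07 (0.00952%), D06 (7.88%) or BPR21 mice (0.504%). At an unadjusted limma p under 0.05 there were 1, 1, 0 and 2 of 9, against 1697, 799, 2436 and 2095 of all genes, and edgeR and DESeq2 called 0 of 9 in each. These 4 comparisons share the control mice. The D06 comparison, which had the most calls over all genes of these 4, gave the members differences from -0.21 (Il1b, interval -0.60 to 0.18) to 0.04 (Casp1, interval -0.20 to 0.28). Scaled by total counts, 8 of the 9 genes were lower in D06 mice than in controls, Il1r2 being the exception (FDR 0.0521), while 67% of all genes were called and their median moved to -0.57. The sign of Casp1 and Gsdmd reversed between the scalings, from 0.04 to -0.50 and from 0.01 to -0.55. Il18 was at -0.30 in D11 mice (SE 0.12, FDR 0.22) and at -0.22 in BPR21 mice (SE 0.10, FDR 0.21). Pycard was at -0.22 in BPR21 mice (SE 0.095, FDR 0.18), and with total-count scaling it was the only member called there (6.46% of all genes called).

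Across all 6 groups, 1 of the 9 genes differed by limma's F test, the decoy receptor Il1r2 (FDR 0.0491), where 18.3% of all genes did. Without BPR21 mice 7 and 11 the FDR was 0.25 and 0 of 9 genes were called. With total-count scaling 7 of 9 were called, where 75.6% of all genes were. In order of group mean, Il1r2 was highest in BPR21 (8.95 ± 1.48, SD, n = 12), then HOCl (8.38 ± 0.41, n = 11), E07 (8.12 ± 0.30, n = 12), control (8.10 ± 0.45, n = 11), D11 (8.07 ± 0.34, n = 12) and D06 (7.99 ± 0.45, n = 12). For each of the 9 genes, none of the 5 steps between neighbouring groups exceeded the pooled SD of the pair. The span from the highest to the lowest group mean was 0.96 for Il1r2, 0.40 for Nlrp3, 0.38 for Il1b and between 0.16 and 0.34 for the others.

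BPR21 mice 7 and 11 set the width of the BPR21 values for Il1r2. Il1r2 was at 11.7 in mouse 7 and 12.3 in mouse 11 on the vst scale, whereas no other mouse exceeded 9.16, and it showed the widest such gap (2.55) of all 10508 genes. In counts, these mice held 3221 and 4012 Il1r2 reads, against at most 368 in any other mouse. Il1rn, the receptor antagonist, was at 11.0 and 12.4, against at most 9.97 elsewhere. Il1b was at 13.7 and 14.4, against a highest value of 13.6 in control mouse 6. Casp4 (10.0 and 10.1) and Nlrp3 (9.02 and 10.3) also exceeded all other mice on the vst scale. Pycard, Casp1, Gsdmd and Il18 did not: in both mice their values lay within the range of the others. In unscaled counts, mouse 7 was below the highest other mouse for Nlrp3 (397 against 426) and Il1b (13535 against 15878). For Casp4 both mice were below it (926 and 781 against 967), whereas for Il1rn both were above it (1871 and 4331 against 1094). On the vst scale, both inhibitors stood further outside the range of the other mice than their ligand did, with gaps of 2.55 (Il1r2) and 0.99 (Il1rn) against 0.08 for Il1b. In these mice the neutrophil marker mean was 11.8, where HOCl mice reached up to 11.9. Their monocyte marker mean was 9.62 and 9.74, against 9.84 in controls. Over the BPR21 group with these mice included it was 9.34 (range 9.01 to 9.74). B cell markers were at 9.89 and 9.07, below the BPR21 group mean of 10.5. The part of these cell markers in the result was not tested. Without the 2 mice, Il1r2 in BPR21 was 8.34 ± 0.40 (SD, n = 10), and Il1rn fell within 8.69 to 9.21.

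**Figure D4:**
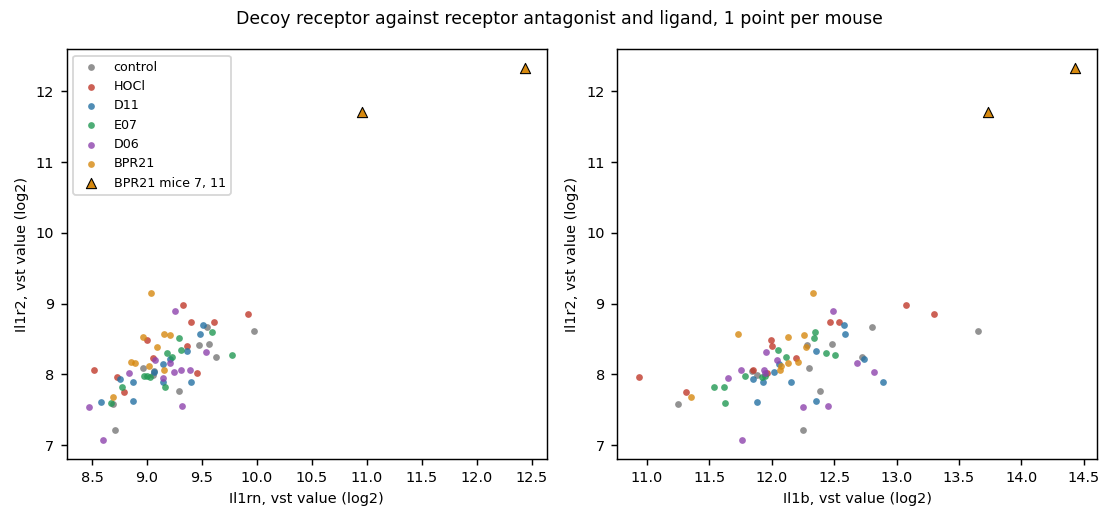
Il1r2 against Il1rn (left) and against Il1b (right) on the vst scale (log2), 1 point per mouse, coloured by group; triangles are BPR21 mice 7 and 11. The triangles extend a cloud in which Il1r2 and Il1rn still varied together (r = 0.63 over the other 68 mice).

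The ratio of ligand to inhibitor within a library does not depend on how the library is scaled, so it was tested on counts (two-sided permutation test, 18 tests adjusted together). The ratio of Il1b to the decoy receptor Il1r2 was lower in HOCl mice than in controls. Controls had log2 ratios of 4.45 to 6.69 (median 4.83, or 28.5 Il1b reads per Il1r2 read) and HOCl mice 3.50 to 4.88 (median 4.36, or 20.5 reads). Of the 12 HOCl mice, 6 lay below every control and 11 below the control median. The difference was -0.76 in log2 units, or 0.589-fold (permutation p = 0.00083, adjusted 0.00747). It kept its call without each of the 23 mice in turn, with adjusted p of at most 0.0121.

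In treated mice the same ratio was higher than under HOCl alone in 2 of 4 groups. D11 mice had log2 ratios of 4.35 to 5.93 (median 4.87), and 6 of the 12 lay above every HOCl mouse. Their difference from HOCl mice was 0.71, or 1.64-fold (permutation p = 0.00062, adjusted 0.00747), and it stayed called without each of the 24 mice. D06 mice ranged from 4.00 to 6.59 (median 4.70), a difference of 0.74, or 1.67-fold (adjusted permutation p = 0.0425). This call was lost in 14 of 24 cases in which 1 mouse was left out, with an adjusted permutation p of up to 0.0719. E07 mice ranged from 4.25 to 5.19 (median 4.70). Their difference of 0.35 did not pass (permutation p = 0.0179, adjusted 0.0643), although leaving out 1 mouse brought it to a call in 5 of 24 cases. BPR21 mice did not differ detectably from HOCl mice (-0.33, adjusted permutation p = 0.63), and the difference was 0.05 without mice 7 and 11. These tests share the HOCl mice, so they are not independent of the HOCl-control difference, and no test compared the treatments with each other.

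Against controls, the Il1b to Il1r2 ratio was lower in BPR21 mice, at -1.09 in log2 units (adjusted permutation p = 0.0121, 12 of 12 mice below the control median). Without mice 7 and 11 it was -0.71 (adjusted permutation p = 0.0380, 10 of 10 mice). D11 (-0.05), E07 (-0.41) and D06 mice (-0.02) did not pass, with adjusted permutation p of 0.95, 0.15 and 0.95. Computed as a difference of vst values, which compress low genes and leave out HOCl mouse 8, the HOCl-control difference was -0.49 (adjusted permutation p = 0.0818) and the D11-HOCl difference 0.45 (adjusted permutation p = 0.0521), and neither passed.

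Cell marker means of the same groups are set beside this ratio. The neutrophil marker mean was 10.2 in controls (range 9.66 to 11.1) and 10.6 in HOCl mice (10.1 to 11.9), with 3 of 14 neutrophil markers called higher in HOCl mice. The neutrophil minus monocyte marker mean was 0.32 ± 0.22 (SD, n = 11) in controls and 0.78 ± 0.52 in HOCl mice (n = 11). In D11 mice the neutrophil mean was 10.2 (10.00 to 10.5), in E07 mice 10.2 (9.73 to 10.5), in D06 mice 10.4 (9.80 to 11.4) and in BPR21 mice 10.3. Against HOCl mice, the D11 group had a median log2 fold change of -0.38 over the 14 neutrophil markers and of -0.26 over the 13 monocyte markers. None was called in either list, where 0.0571% of all genes were. At an unadjusted limma p under 0.05 there were 7 of 14 and 8 of 13, against 1483 of all 10508 genes. In E07 mice, whose ratio did not pass against HOCl mice, these medians were -0.43 and -0.28. There 3 of 14 neutrophil and 3 of 13 monocyte markers were called lower, where 7.89% of all genes were called. At an unadjusted limma p under 0.05 there were 6 of 14 and 9 of 13, against 2996 of all 10508 genes. The neutrophil minus monocyte mean was 0.67 ± 0.21 in D11, 0.69 ± 0.15 in E07, 0.85 ± 0.47 in D06 and 0.95 ± 0.61 in BPR21 mice (SD, n = 12 each). Without mice 7 and 11 the BPR21 value was 0.72 ± 0.28 (SD, n = 10). Across 70 mice, the ratio and the neutrophil mean had r = -0.42, and r = -0.14 without the 2 BPR21 mice, a description over mice of 6 groups. The part of these markers in the ratio was not tested.

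For the ratio of Il1b to the receptor antagonist Il1rn, no comparison passed. It was 3.39 ± 0.34 (SD, n = 11) in controls and 3.27 ± 0.44 (n = 12) in HOCl mice, a difference of -0.11 (permutation p = 0.51, adjusted 0.70). The largest of the 9 differences was 0.23, in D11 against HOCl mice, and none of the 9 passed (adjusted permutation p of 0.23 to 0.95). Mouse 11 of BPR21 had the lowest value of that group, 2.02, and the group median was 3.38.

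**Figure D5:**
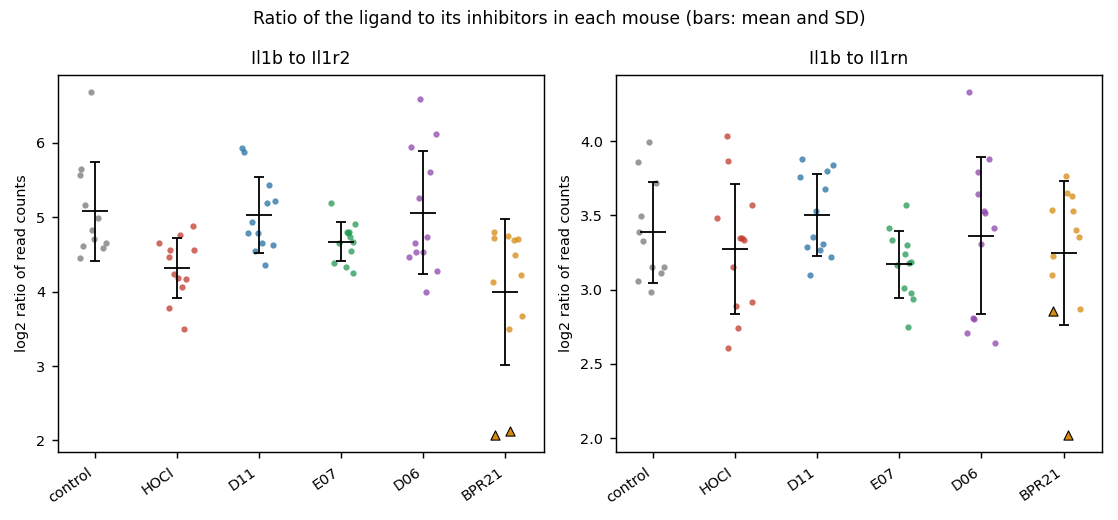
Log2 ratio of Il1b to Il1r2 reads (left) and of Il1b to Il1rn reads (right) in each of 71 mice by group, with mean and SD as bars; triangles are BPR21 mice 7 and 11. On the left, the 12 HOCl mice sit between 3.50 and 4.88 and 6 of them lie below the lowest control, whereas on the right control and HOCl means differ by 0.11.

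The members covaried to different degrees. Over 70 mice, vst values of Il1rn and Il1r2 had Pearson's r = 0.87, Il1b and Il1rn 0.79, Nlrp3 and Il1rn 0.78, Nlrp3 and Il1r2 0.77, and Nlrp3 and Il1b 0.72. Without BPR21 mice 7 and 11 these were 0.63, 0.67, 0.55, 0.59 and 0.55. Casp4 had r of 0.69 with Il1b, 0.65 with Il1rn, 0.60 with Il1r2 and 0.47 with Nlrp3. In the other 68 mice these were 0.56, 0.46, 0.30 and 0.20. Pycard had r of at most 0.40 with any other member, and Il18 at most 0.21. Both genes of a pair were read from the same library of each mouse, and so share its depth and cell composition. The genes most like Il1b over 70 mice were Gcnt2 (r = 0.91), Fgl2 (0.89) and Cebpd (0.89), and these kept r of 0.83 to 0.86 in the other 68 mice. Nlrp3 was most like Fgl2, Gcnt2 and Cxcr2 (0.78 to 0.79, and 0.62 to 0.65 in the other 68 mice). Il1r2 was most like Il1rn (0.87, and 0.63 in the other 68), Clec4d (0.86 and 0.58) and Cxcr2 (0.85 and 0.69). Il1rn was most like Il1r2, Cxcr2 and Gcnt2 (0.85 to 0.87, and 0.63 to 0.74 in the other 68). Cxcr2, a chemokine receptor of neutrophils, thus stood among the nearest genes of 3 members. Casp4 was most like Sirpb1c, Fbxl5 and Clec7a (0.78 to 0.81, and 0.67 to 0.74 in the other 68). The nearest genes of Pycard (2010315B03Rik, Dpm3 and Cd52), Gsdmd (Coro1a, Mical1 and Clic1) and Il18 (Hmox2, Tnfaip8l1 and Sgsm3) had r of 0.53 to 0.60.

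Other genes of the pathway were taken from 5 lists, with 57 genes in the vst table. In HOCl mice against controls, 1 of the 57 was called, a smaller share than the 4.96% of all genes. It was Tab3, a kinase adaptor downstream of the IL-1 receptor, which rose by 0.79 in log2 units (SE 0.18, limma FDR 0.00879). It was 8.94 ± 0.41 (SD, n = 11) in controls and 9.73 ± 0.51 (n = 11) in HOCl mice. Of the sensor and regulator list 0 of 22 were called in this comparison, with a median of 0.02, and of IL-1 receptor signalling 1 of 15. In E07 mice against HOCl mice, 5 of 57 were called, a share close to the 7.89% of all genes, and 4 of these fell. These were Tab3 (-0.73, FDR 0.00362), Il1rap (-0.47, SE 0.14, FDR 0.0235), Nek7 (-0.41, SE 0.097, FDR 0.00508) and Tab2 (-0.39, FDR 0.00703), the last lying beyond the 3 lower genes that the naming rule takes. Il1rap encodes the co-receptor that IL-1 signalling needs, and NEK7 is a partner of NLRP3. Tnf, an NF-kB target and cytokine, rose by 0.39 (SE 0.10, FDR 0.00983). In D06 mice against controls, 3 of 57 were called, a smaller share than the 7.88% of all genes. Tab3 (0.94, FDR 0.000998), Ninj1 (0.61, FDR 0.00251) and Il1rl1 (0.44, FDR 0.0349) rose. NINJ1 ruptures the plasma membrane after pore formation, and Il1rl1 encodes the IL-33 receptor. No gene of the lists was called in the other 6 comparisons.

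Markers of other blood cells moved in the same comparisons (vst values, limma). Platelet markers were called higher in HOCl mice than in controls for 5 of 9 genes, lower in E07 than in HOCl mice for 8 of 9, and higher in D06 mice than in controls for 6 of 9. Eosinophil markers were called higher in D06 mice than in controls for 3 of 4 genes and in E07 than in HOCl mice for 2 of 4. In HOCl mice against controls 0 of 4 were called. Their part in the calls of pathway genes was not tested. An erythroid covariate was formed as the mean of the erythroid markers, each first standardized across the mice compared. With it, 1, 0 and 3 of all 10508 genes were called in these 3 comparisons. The loss of the 9 calls of pathway genes there therefore says nothing particular about them. Of the fold changes, Il1rl1 stayed at 0.44 and Ninj1 went from 0.61 to 0.44 in D06 mice against controls. Tab3 in HOCl mice against controls went from 0.79 to 0.02, and Nek7 in E07 against HOCl mice from -0.41 to 0.03. Il1rap in E07 against HOCl mice went from -0.47 to -0.49 (FDR 0.40). With total-count scaling, Nek7 (0.09), Tab2 (0.11) and Il1rap (-0.16) were not called in E07 mice, nor was Tab3 (-0.34, FDR 0.0558), while Tnf (1.27) was. Ninj1 (0.07) and Il1rl1 (0.34) were not called in D06 mice against controls. Tab3 remained called in HOCl mice (0.44) and in D06 mice (0.57) against controls.

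Levels of further receptors and sensors completed the pathway. Il1r1, the signalling receptor of IL-1, was not in the vst table and had a median of 1 count (0 to 25), so that its RNA was barely measured in this blood. Il1rap was well measured, at a median of 241 counts, as were the IL-18 receptor chains Il18r1 (519) and Il18rap (993) and the adaptor Myd88 (879). The IL-18 binding protein gene Il18bp had a median of 46 counts and the ligand gene Il1a 14. Of the other sensors, Aim2 had a median of 365 counts, Nlrp12 417, Mefv 258 and Nlrc4 59. Per length, Myd88 was the highest of these at 16.2 RPKM and Nlrc4 stood at 0.862 RPKM. Il33 (median 0 counts) and Il6 (4) were not in the vst table. Cxcl2 was at a median of 0 counts and reached 635 in 1 mouse.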

How the data were processed

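Whole-blood RNA of 71 mice was sequenced by the authors as poly A selected, globin-depleted, strand-specific libraries. Per the labels, the authors made the read counts per gene with FastQC, cutadapt, STAR, SAMtools, Picard and featureCounts on mm39, whose versions are not listed here. The deposited log2 values are variance-stabilized (vst) values that the authors computed with DESeq2 after leaving out non-coding and low genes. The strand setting of the counting is not given in the sources used here. Groups and mouse numbers came from the sample titles. The control samples are titled CTRL, but their characteristics read genotype HOCL and treatment none, and the title was used. Each mouse is 1 sample. Each pair of groups was fitted with limma 3.58.1 (R 4.3.3) on vst values over 10508 genes, and a gene was called where its FDR did not exceed 0.05 with a fold change, up or down, of 1.3 or more. Counts were used for RPKM, with exon lengths of GENCODE vM39 on GRCm39, and for log2 ratios with 0.5 added to both counts, tested with 100000 permutations. Alternatives were edgeR 4.0.16 and DESeq2 1.42.0 on counts (10503 genes paired with 1 count row), other scalings, filters and covariates. The tests were checked on simulated data. Whether mouse numbers pair the animals was checked by the correlation of deviations from the group means. It averaged 0.01 to 0.15 in the 9 comparisons, and not every pair exceeded 0.1, so the numbers were not taken as pairs. The members and gene lists were chosen with earlier results of these data known. Named pathway genes are the 11 given with levels and, per comparison, up to 3 higher and 3 lower called genes. Each member's 3 nearest genes were taken by Pearson's r, and those of Casp1 are not reported here. No proteins are shown.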

Additional observations from a re-analysis of the deposited data

How the results depend on the processing

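With edgeR and DESeq2 on the genes of the vst table, limma with trend and all 6 groups in 1 fit, 0 of 9 members were called in each of the 9 comparisons. The erythroid covariate also gave 0, but it left few calls over all genes (1 in HOCl against control, 0 in E07 against HOCl mice). Leaving out in turn each of the 11 HOCl mice with vst values gave 0 called in the 5 comparisons with HOCl. Total-count scaling called 5 members in HOCl against control mice, 6 in E07 against HOCl, 8 in D06 against controls, 1 in BPR21 against controls and 7 among the 6 groups. Among members called there, it reversed Casp1 (0.48) and Il1rn (0.47) in E07 against HOCl mice and Casp1 (-0.50) and Gsdmd (-0.55) in D06 against control mice. It also turned Nlrp3, Il1b and Il1r2, uncalled, from lower to higher in E07 against HOCl mice. With no fold threshold, 1 member (Gsdmd) was called in E07 against HOCl mice. The neutrophil covariate called 1 member, Il1r2, in BPR21 against HOCl mice (1.03, FDR 0.0274), and edgeR with no filter called 1, Il1r2, in BPR21 against controls (2.28, FDR 0.0386). Without BPR21 mice 7 and 11 neither was called (0.23, FDR 0.72, and 0.30, FDR 0.54). For that comparison DESeq2, which by default replaces outlying counts, gave 0.33. The call among the 6 groups became 0 with the replicate block (Il1r2 FDR 0.0664) and 0 without BPR21 mice 7 and 11, an alternative chosen after seeing the data. Over all genes, calls in HOCl against control mice were 521, and 85 with the block, 167 with the neutrophil covariate, 1 with the erythroid covariate and 812 by edgeR with no filter. In E07 against HOCl mice they were 829, and 0 with the erythroid covariate and 2388 by edgeR with no filter.

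The block of mouse numbers changed no other call of a member. As sign-flipped pairs, the Il1b to Il1r2 ratio differed by -0.80 in HOCl against control mice (adjusted p = 0.0293, exact test) and by 0.71 in D11 and 0.74 in D06 against HOCl mice (each adjusted p = 0.0293, exact test). As vst differences, these 3 were not called, at -0.49, 0.45 and 0.39 (adjusted permutation p of 0.0818, 0.0521 and 0.19). Leaving out 1 mouse at a time, chosen after seeing the data, gave -0.83 to -0.60 for HOCl against control, 0.63 to 0.77 for D11, 0.28 to 0.41 for E07 and 0.60 to 0.84 for D06 against HOCl. The D06 call was lost without HOCl mouse 1, 2, 4, 6, 7, 8, 9, 11 or 12, or D06 mouse 2, 3, 5, 6 or 11, and E07 was called without HOCl mouse 3, 5 or 10, or E07 mouse 1 or 6. Without BPR21 mice 7 and 11, 3 uncalled ratio differences of BPR21 changed sign, to 0.13 (Il1rn, against HOCl), 0.021 (Il1rn, against control) and 0.050 (Il1r2, against HOCl). Of 81 member fold changes, the sign differed in 19 under total-count scaling, 15 with the erythroid and 13 with the neutrophil covariate, 5 under the block, and 3 under edgeR and under DESeq2. Without BPR21 mice 7 and 11 it differed in 9 of the 18 of BPR21, Il1r2 against HOCl mice among them, which DESeq2 also turned (-0.12). The cause of these changes was not tested. Il18, at a median of 44 counts, was the member that depth limited most.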

Other observations

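HOCl mouse 8, which entered only the count ratios, held 3349 Il1b reads and 296 Il1r2 reads, the lowest Il1b to Il1r2 ratio of its group (3.50 on the log2 scale). Control mouse 6 held the highest control value of Nlrp3, Casp1, Casp4, Gsdmd, Il1b, Il18 and Il1rn on the vst scale, and the lowest control value of Pycard (8.80). Its neutrophil marker mean was 11.1 and its monocyte marker mean 10.5, the highest of the controls for both. Control mouse 12 held 33 Il1r2 reads and the highest Il1b to Il1r2 ratio of all mice, 6.69.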
